A study of Rattus norvegicus with 20 samples.

Results

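Small leucine-rich proteoglycans are secreted proteins of the extracellular matrix. Of their genes, 8 (Ogn, Dcn, Bgn, Aspn, Lum, Fmod, Prelp and Omd) were followed through arterial RNA of rat models of hypertension and controls. The genes were chosen by name, as every probe whose gene name in the scanner files equals one of the 8 symbols. This gave 9 of 30367 distinct probes, 2 of them for Bgn, and 8 of the 16401 genes tested. All 9 probes were well above background on all 20 arrays, so all 8 genes passed the filter on dim probes. Total RNA of whole mesenteric artery was hybridised in 1 colour to Agilent 60-base rat arrays, 1 rat per array and 4 arrays per group. SHR/Izm rats and their stroke-prone substrain SHRSP/Izm develop hypertension by inheritance and were untreated. WKY/Izm rats, the normotensive strain, had a clip on 1 renal artery with the opposite kidney kept (2K1C) or removed (1K1C), or had no operation (untreated WKY). All groups carry the label of 6 weeks of age, and the protocols give 3 weeks for the operated and non-operated WKY; whether this period lies before or after that age is not settled. No blood pressure was examined here, and untreated WKY rats are the only controls, with no sham operation in the labels.

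The proteins have a core of leucine-rich repeats that binds collagen fibrils and, in decorin and biglycan, carries chondroitin or dermatan sulfate chains. They set the diameter and spacing of collagen fibrils, and decorin and biglycan also bind TGF-beta. In arteries they are made by adventitial fibroblasts and smooth muscle cells. Decorin (Dcn), biglycan (Bgn) and asporin (Aspn) form class I of the family, lumican (Lum), fibromodulin (Fmod), prolargin (Prelp) and osteomodulin (Omd) class II, and osteoglycin (Ogn, also called mimecan) class III.

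On the rn4 build used by the array design, the probes of Ogn, Omd and Aspn lay on the minus strand of chromosome 17. The Ogn and Omd probes were 27.9 kb apart, and those of Omd and Aspn 20.6 kb. The Dcn and Lum probes lay 45.3 kb apart on chromosome 7, those of Fmod and Prelp 134.8 kb apart on chromosome 13, and both Bgn probes on chromosome X. The 4 probes below are shown because relatives in a family of repeats could cross-hybridise. Dcn (chr7:35037331-35041132, plus strand, across an intron) and Lum (chr7:35086409-35086468, plus strand) shared the longest run of any 2 genes' probes, 12 bases, which are in capitals. Every other pair of probes shared at most 8 bases in a row. The second Bgn probe (chrX:159392152-159392211, plus strand) is open in frame up to a stop codon, in capitals, and the Aspn probe (chr17:21035836-21035895, minus strand) has no capitals.
Dcn probe: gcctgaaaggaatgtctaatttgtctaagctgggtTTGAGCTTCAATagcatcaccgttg
Lum probe: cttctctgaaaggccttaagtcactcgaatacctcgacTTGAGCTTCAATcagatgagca
Bgn probe: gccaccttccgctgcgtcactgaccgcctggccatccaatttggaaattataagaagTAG
Aspn probe: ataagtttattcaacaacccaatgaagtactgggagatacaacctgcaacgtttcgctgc

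The sequence before the start of the 3 neighbouring genes of chromosome 17 is shown because Ogn and Omd were low on the same 4 arrays, described further on. On 3 of these Aspn was not low. Bgn, on chromosome X, was low on the same 4 arrays, so this was not particular to the neighbours on chromosome 17. RefSeq (GRCr8) gave a promoter for 5 of the 8 genes, namely Lum, Fmod, Ogn, Omd and Aspn. Of each 250-base window, the bases that lie before the annotated gene are printed: chr17:15259168-15259245 for Ogn, chr17:15274871-15275120 for Omd and chr17:15310568-15310719 for Aspn, all on the minus strand. Capitals mark TATAAA and CANNTG on either strand.
Ogn promoter: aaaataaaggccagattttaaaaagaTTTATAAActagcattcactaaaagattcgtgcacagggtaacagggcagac
Omd promoter: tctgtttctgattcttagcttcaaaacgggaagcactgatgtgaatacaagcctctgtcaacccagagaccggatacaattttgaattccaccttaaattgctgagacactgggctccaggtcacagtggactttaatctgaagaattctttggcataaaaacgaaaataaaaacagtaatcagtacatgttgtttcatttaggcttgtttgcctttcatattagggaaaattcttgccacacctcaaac
Aspn promoter: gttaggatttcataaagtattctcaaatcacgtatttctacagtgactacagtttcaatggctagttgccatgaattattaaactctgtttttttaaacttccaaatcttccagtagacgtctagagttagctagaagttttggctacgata
In its whole 250-base window Ogn had 2 overlapping matches to TATAAA, 1 on each strand, and 3 to CANNTG, while Omd had 0 of either. Aspn had 0 matches to TATAAA and 1 to CANNTG, which lies outside the printed stretch. Among all 33469 promoters, 12.9% held TATAAA and 65.5% held CANNTG, so these letters are common and a match marks no site.

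Levels are processed signals on a log2 scale after subtraction of each array's 75th percentile, so that 0 is the 75th percentile of an array's spots; levels of different probes are not set against each other. The 75th percentile itself ran from 574.5 to 1193 between arrays, and 66.5% to 71.7% of spots were well above background. The arrays lay on 3 slides, with 2K1C on slide 1, 1K1C and untreated WKY on slide 2, and SHR and SHRSP on slide 3. Slide and group can therefore not be told apart except between 1K1C and untreated WKY and between SHRSP and SHR, where each group still filled a row of its own. Markers of mesothelium, the lining of the peritoneum, were high on 4 arrays: SHR 1, 1K1C 2, WKY 2 and WKY 3. On these the mean log2 level of 5 measured mesothelium markers was -0.23, -1.10, -0.47 and -1.51, against -5.33 to -2.70 on the other 16. Lymphocyte markers were high on SHRSP 4, at 0.59, and on 2K1C 4, at 2.02. Smooth muscle markers (Tagln, Myh11 and Des were the brightest of the list) and fibroblast markers (Gsn, Mfap5 and Col14a1) were measured on all arrays. Results that rest on the 4 arrays are given with and without them.

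**Figure D1:**
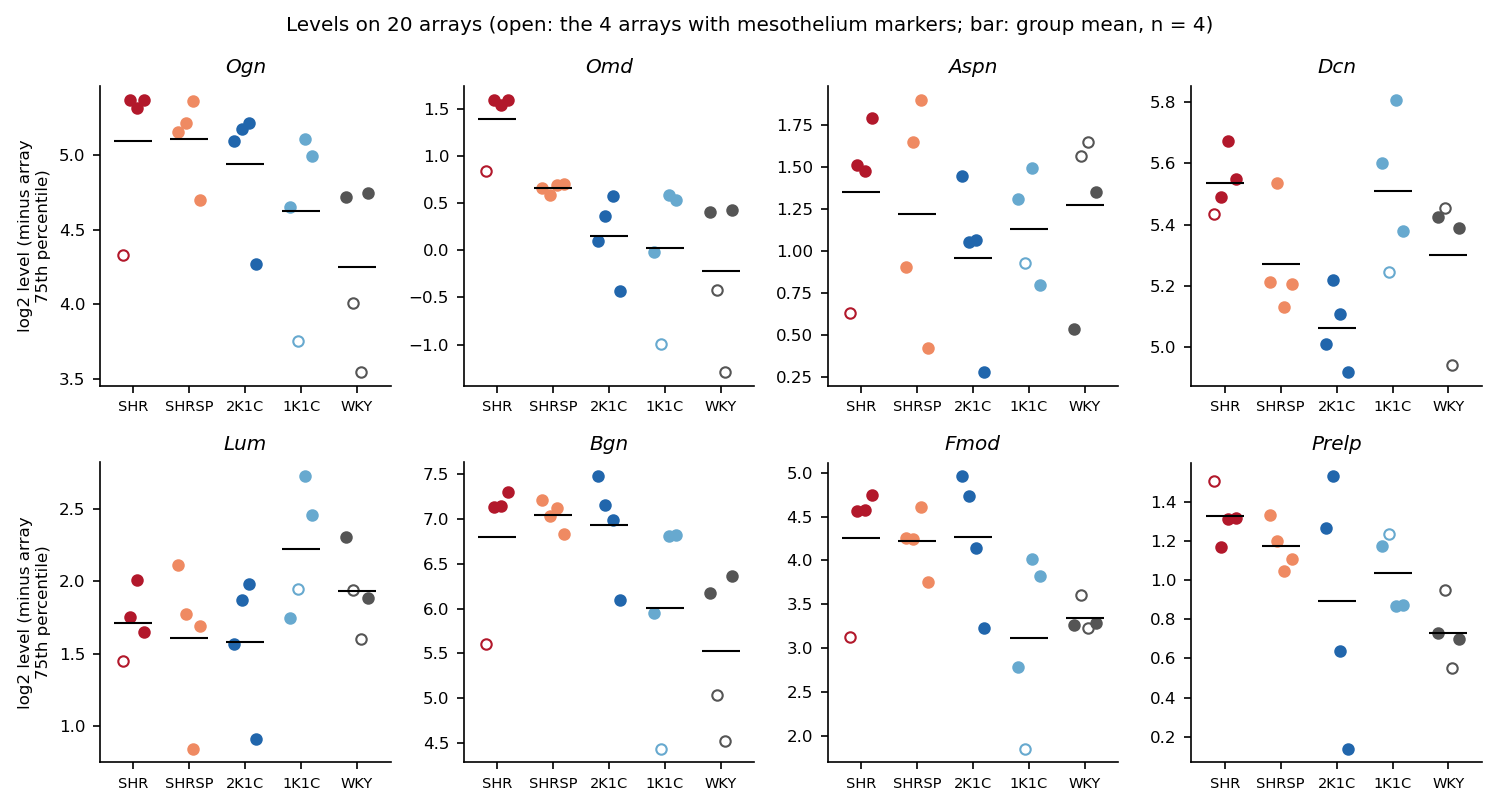
Log2 level of each gene on the 20 arrays, 1 panel per gene, groups from left to right SHR, SHRSP, 2K1C, 1K1C and untreated WKY; points are arrays, bars are means of 4, and open points are SHR 1, 1K1C 2, WKY 2 and WKY 3. For Omd all 4 SHR points, 0.84 to 1.60, lie above all WKY points, and for Ogn, Bgn and Omd the open points lie below the filled points of their own group.

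Of the 8 genes, Omd in SHR was the 1 that passed the test against untreated WKY, with a level 3.06-fold higher. Ogn, Bgn, Omd and Prelp had positive differences from untreated WKY in all 4 model groups. On the log2 scale these were 0.37 to 0.86 for Ogn and 0.48 to 1.53 for Bgn. They were 0.25 to 1.61 for Omd and 0.16 to 0.59 for Prelp. Apart from that of Omd in SHR, none of these differences passed the test. Fmod had differences of 0.87 to 0.92 in SHR, SHRSP and 2K1C, without a call, and those of Dcn, Lum and Aspn lay between -0.35 and 0.29 in all 4 groups on the full set of 20 arrays. In SHR, 7 of the 8 differences were positive, with a median of 0.72 against 0.02 over all genes tested, and 1 passed limma's test at an adjusted p below 0.05, against 1.85% of all genes. In SHRSP, 5 of the 8 were positive with a median of 0.65, and 0 passed limma's test (3 at an unadjusted p under 0.05), where 2.4% of all genes did. In 2K1C, 5 were positive with a median of 0.27 and 0 were called (1 at an unadjusted p under 0.05), with 0.0122% of all genes called. In 1K1C, 6 were positive with a median of 0.27, of which 0 passed adjusted or unadjusted, and 0.0% of all genes were called. These 4 comparisons share the same 4 untreated WKY arrays.

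**Figure D2:**
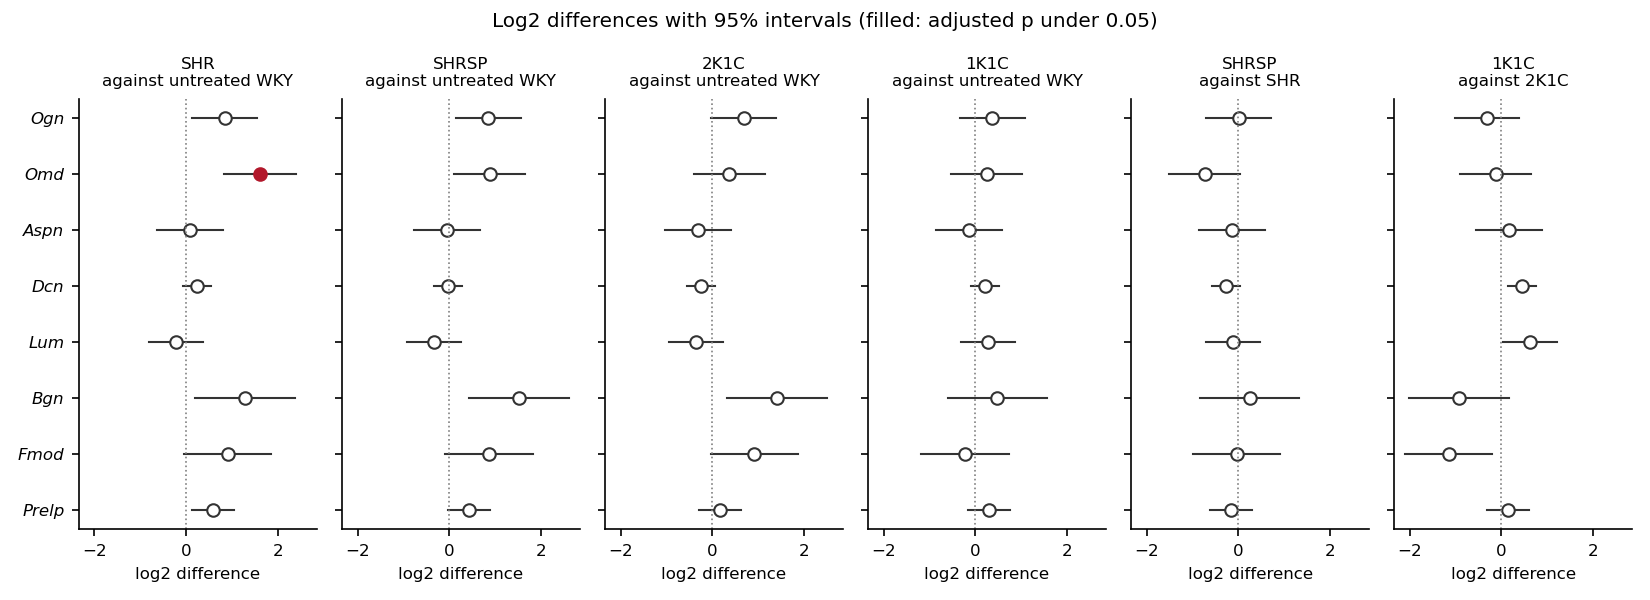
Log2 difference with its 95% interval for the 8 genes (rows) in 6 comparisons of 2 groups (panels, first-named group minus second); filled points have an adjusted p under 0.05. The 1 filled point is Omd in SHR against untreated WKY, at 1.61, and the widest intervals are those of Bgn and Fmod.

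Osteoglycin (Ogn), a class III member that is abundant in the vessel wall, had log2 levels of 4.33, 5.37, 5.31 and 5.37 on the SHR arrays and 5.16, 5.22, 5.36 and 4.70 on the SHRSP arrays, against 4.72, 4.01, 3.54 and 4.74 on the untreated WKY arrays. On the 2K1C arrays it was 5.09, 5.18, 5.21 and 4.27, and on the 1K1C arrays 4.65, 3.75, 5.11 and 4.99. SHR 1, 2K1C 4, 1K1C 2 and WKY 3 were the low arrays of their groups, and all 4 groups overlapped with untreated WKY. Ogn averaged 5.10 ± 0.51 in SHR, 5.11 ± 0.29 in SHRSP, 4.94 ± 0.45 in 2K1C and 4.63 ± 0.61 in 1K1C, against 4.25 ± 0.58 in untreated WKY (SD, n = 4 each). The order of group means was thus SHRSP, SHR, 2K1C, 1K1C and untreated WKY, and no 2 neighbours in it differed beyond their spread. The differences from untreated WKY were 0.84 in SHR, 0.86 in SHRSP, 0.69 in 2K1C and 0.37 in 1K1C, each with a standard error of 0.34. With limma, adjusted p was 0.252, 0.210, 0.239 and 0.711 in that order of groups. The 95% interval in SHR ran from 0.14 to 1.55, and in SHRSP from 0.15 to 1.56.

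Leaving out SHR 1, 1K1C 2, WKY 2 and WKY 3 moved these values, since untreated WKY then rests on 2 arrays, both above the other 2 in Ogn. The difference became 0.62 ± 0.27 in SHR, 0.38 ± 0.25 in SHRSP, 0.21 ± 0.25 in 2K1C and 0.19 ± 0.27 in 1K1C (SE), again with none below an adjusted p of 0.05. In SHRSP, 2K1C and 1K1C the value thus moved by more than 1.5 times. Whether mesothelium on an artery lowers these signals was not tested, and in bulk RNA fewer cells of a type and less RNA per cell cannot be told apart.

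Biglycan (Bgn), which carries 2 glycosaminoglycan chains and can act as a danger signal when released from matrix, was read by 2 probes. The brighter one, used for the test, had log2 levels of 5.61, 7.14, 7.15 and 7.31 on the SHR arrays and 7.21, 7.03, 7.12 and 6.84 on the SHRSP arrays, against 6.17, 5.03, 4.52 and 6.36 on the untreated WKY arrays. SHRSP lay wholly above untreated WKY, while SHR overlapped with it through SHR 1 alone. On the 2K1C arrays the level was 7.48, 7.16, 6.99 and 6.10, and on the 1K1C arrays 5.95, 4.43, 6.81 and 6.83. The low arrays, SHR 1, 1K1C 2, WKY 2 and WKY 3, were those with mesothelium markers, together with 2K1C 4. Differences from untreated WKY were 1.28 in SHR, 1.53 in SHRSP, 1.41 in 2K1C and 0.48 in 1K1C, each with a standard error of 0.52. None passed, with adjusted p in limma of 0.260, 0.140, 0.151 and 0.751. The second probe gave 1.27, 1.46, 1.50 and 0.76 for the same 4 differences, again without a call when every probe was tested. Without the 4 arrays the tested probe's differences were 0.93, 0.78, 0.67 and 0.26, none of them called.

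Decorin (Dcn), the prototype of the family and a ligand of TGF-beta and of several receptor kinases, varied least of the 8. It had 10 spots per array, against 2 for the other probes, and its standard deviation within groups was 0.189, which is larger than that of only 15.2% of the genes tested. Its log2 levels were 5.43, 5.49, 5.67 and 5.55 in SHR and 5.21, 5.54, 5.13 and 5.21 in SHRSP, against 5.42, 5.45, 4.94 and 5.39 in untreated WKY. The 3 groups overlapped, with WKY 3 the low array. In 2K1C the levels were 5.01, 5.22, 5.11 and 4.92, and in 1K1C 5.60, 5.24, 5.81 and 5.38. All 4 1K1C arrays lay above all 4 2K1C arrays, while both groups overlapped with untreated WKY. The differences from untreated WKY were 0.23 in SHR, -0.031 in SHRSP, -0.24 in 2K1C and 0.21 in 1K1C (SE 0.14), with adjusted p of 0.326 or more in limma; the sign in SHRSP turned under other scalings, as did the values nearest 0 of other genes. Without the 4 arrays with mesothelium markers the differences were 0.16, -0.13, -0.34 and 0.19, none of them called.

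Asporin (Aspn), a class I member with an aspartate-rich start that carries no glycosaminoglycan chain, showed no order among groups. Its log2 levels were 0.64, 1.51, 1.48 and 1.79 in SHR and 0.90, 1.65, 1.90 and 0.42 in SHRSP, against 0.54, 1.57, 1.65 and 1.35 in untreated WKY. The 2K1C arrays had 1.45, 1.06, 1.07 and 0.28, and the 1K1C arrays 1.31, 0.93, 1.50 and 0.80. Every group overlapped with every other. Here WKY 2 and WKY 3, low in Ogn and Omd, were the highest arrays of their group. The differences from untreated WKY were 0.079 in SHR, -0.056 in SHRSP, -0.31 in 2K1C and -0.14 in 1K1C (SE 0.34). Their 95% intervals reached from -1.04 to 0.80. The differences were 0.65 in SHR, 0.28 in SHRSP, 0.019 in 2K1C and 0.26 in 1K1C (SE 0.40 to 0.42) without the 4 arrays with mesothelium markers, none of them called.

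Osteomodulin (Omd), a class II keratan sulfate proteoglycan best known from bone, where it binds mineral and cells, had log2 levels of 0.84, 1.60, 1.54 and 1.59 on the SHR arrays, against 0.40, -0.42, -1.29 and 0.43 on the untreated WKY arrays. All 4 SHR arrays lay above all 4 WKY arrays, and the lowest SHR array was again SHR 1. SHR averaged 1.39 ± 0.37 and untreated WKY -0.22 ± 0.82 (SD, n = 4 each). The difference was 1.61 ± 0.37 (SE), with a 95% interval of 0.84 to 2.39 and an adjusted p of 0.0337 in limma. With SHR 1, 1K1C 2, WKY 2 and WKY 3 left out it was 1.16 ± 0.25 and still called by limma, at an adjusted p of 0.0489. In that fit 0.719% of all genes were called. The setting was chosen after the data were seen, and Omd was low on the arrays left out, so it is no independent check. The call was lost, at an adjusted p of 0.0902 to 0.122, when WKY 2, WKY 3, SHR 2, SHR 3 or SHR 4 was left out alone, at 0.178 when only the 2 groups compared were fitted, at 0.101 on deposited values as given and at 0.0532 with the replicate number as a block. SHR and untreated WKY lay on different slides. The mesothelium list averaged -4.70 to -0.23 on the SHR arrays and -4.41 to -0.47 on the untreated WKY arrays, with 5 of its 8 genes tested.

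In SHRSP the Omd levels were 0.66, 0.59, 0.69 and 0.71, a narrow range that lay above every untreated WKY array and below every SHR array. The 2K1C arrays had 0.10, 0.36, 0.58 and -0.43, and the 1K1C arrays -0.018, -0.997, 0.58 and 0.53. Both operated groups overlapped with untreated WKY. The differences from untreated WKY were 0.88 in SHRSP, 0.37 in 2K1C and 0.25 in 1K1C (SE 0.37), with adjusted p of 0.239, 0.552 and 0.826. The order of group means was SHR, SHRSP, 2K1C, 1K1C and untreated WKY, and the 4 SHRSP arrays lay apart from SHR and just above 2K1C (lowest 0.59, against a highest of 0.58), while the other neighbours overlapped. Without the 4 arrays with mesothelium markers the value in SHRSP was 0.25, and those in 2K1C and 1K1C were -0.26 and -0.048, so that neither operated group kept its sign.

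Fibromodulin (Fmod), which binds type I collagen and guides fibril assembly and crosslinking, had log2 levels of 3.13, 4.56, 4.58 and 4.74 in SHR and 4.25, 4.24, 4.61 and 3.76 in SHRSP, against 3.27, 3.60, 3.23 and 3.28 in untreated WKY. SHRSP lay above untreated WKY on every array, and SHR on all but SHR 1. The 2K1C arrays had 4.96, 4.74, 4.14 and 3.23, and the 1K1C arrays 2.78, 1.85, 4.02 and 3.82. Array 1K1C 2 had the lowest level of all 20 arrays, and its smooth muscle markers were also the lowest, at -0.45 against 1.58 to 3.84 on the other 19. The differences from untreated WKY were 0.91, 0.87 and 0.92 in SHR, SHRSP and 2K1C, and -0.23 in 1K1C (SE 0.45). In limma the adjusted p was 0.384, 0.343, 0.240 and 0.873. Without the 4 arrays the differences were 1.35, 0.94, 0.99 and 0.27, also without a call.

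Prolargin (Prelp), whose basic start binds heparan sulfate at basement membranes, had log2 levels of 1.51, 1.17, 1.31 and 1.32 in SHR and 1.33, 1.20, 1.05 and 1.11 in SHRSP, against 0.73, 0.95, 0.55 and 0.70 in untreated WKY. Both inherited groups lay wholly above untreated WKY. The 2K1C arrays had 1.27, 1.53, 0.64 and 0.14, and the 1K1C arrays 1.17, 1.24, 0.87 and 0.87, and both overlapped with untreated WKY. The differences were 0.59 in SHR, 0.44 in SHRSP, 0.16 in 2K1C and 0.31 in 1K1C (SE 0.22), with adjusted p of 0.205, 0.321, 0.674 and 0.666 in limma. Unlike Ogn, Bgn and Omd, Prelp was not low on SHR 1 or 1K1C 2, which were the highest arrays of their groups. Without the 4 arrays its differences were 0.55, 0.46, 0.18 and 0.26.

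Lumican (Lum), a keratan sulfate proteoglycan of cornea that also occurs in arteries, had log2 levels of 1.45, 1.75, 2.01 and 1.65 in SHR and 2.11, 1.78, 0.85 and 1.69 in SHRSP, against 2.31, 1.94, 1.60 and 1.88 in untreated WKY. In 2K1C the levels were 1.57, 1.87, 1.98 and 0.91, and in 1K1C 1.75, 1.94, 2.72 and 2.46. All groups overlapped with untreated WKY. The differences were -0.22 in SHR, -0.33 in SHRSP, -0.35 in 2K1C and 0.29 in 1K1C (SE 0.28), with adjusted p of 0.460 or more. They were -0.29, -0.49, -0.51 and 0.21 when the 4 arrays with mesothelium markers were left out, also without a call.

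Counted by arrays rather than by the test, SHR did not overlap with untreated WKY in 2 of the 8 genes, Prelp and Omd, where 6.13% of all genes did not overlap. SHRSP did not overlap with untreated WKY in 4 of the 8, Bgn, Fmod, Prelp and Omd, beside 11.3% of all genes. For 2K1C and 1K1C this held for 0 of the 8, beside 7.77% and 3.81% of all genes. In all 6 of these cases the inherited form was the higher group.

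SHRSP and SHR, the substrain and its parent line, shared a slide, and 0 of the 8 genes passed limma's test between them, with 0 at an unadjusted p under 0.05 and 0.372% of all genes called. Omd did not overlap between them, where 3.5% of all genes did not. Its difference was -0.73 ± 0.37 (SE), with a 95% interval of -1.51 to 0.047 and an unadjusted p of 0.0640. Without SHR 1, 1K1C 2, WKY 2 and WKY 3 it was -0.91 ± 0.21, also without a call. For Ogn the difference was 0.012 ± 0.34, with an interval of -0.69 to 0.72, and its sign turned under median scaling. The intervals of Bgn and Fmod were wider, from -0.84 to 1.33 and from -0.99 to 0.92.

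Between the operated groups, 0 of the 8 genes were called in 1K1C against 2K1C (3 at an unadjusted p under 0.05), as were 0.0% of all genes in limma. The 3 were Dcn, Lum and Fmod, and they did not move together. Dcn differed by 0.44 ± 0.14, with groups that did not overlap (9.76% of all genes did not) and an adjusted p of 0.0956. Lum differed by 0.63 ± 0.28, at 0.202, and Fmod differed by -1.15 ± 0.45, at 0.152. Bgn differed by -0.93 ± 0.52, and Ogn by -0.31 ± 0.34. Without SHR 1, 1K1C 2, WKY 2 and WKY 3, Fmod was -0.72, Bgn -0.40 and Ogn -0.023. Dcn was then 0.53 and Lum 0.73, and again 0 of the 8 genes were called. Cell type marker lists also had differences between the operated groups on all 20 arrays. All 8 smooth muscle markers had negative differences, with a median of -1.57. All 8 white adipocyte markers had positive ones, with a median of 1.42. Other lists moved as well. The fibroblast list had 8 of 11 positive and a median of 0.40, and the Schwann cell list 1 of 8 positive and a median of -1.38. None of the markers on these lists was called. The smooth muscle list averaged -0.45 to 2.78 on the 1K1C arrays and 2.14 to 3.84 on the 2K1C arrays. The white adipocyte list averaged 2.08 to 3.38 in 1K1C and 0.78 to 1.82 in 2K1C. The fibroblast list averaged 1.36 to 1.79 in 1K1C and 0.96 to 1.39 in 2K1C. The part of these lists in the proteoglycan differences was not tested.

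The mean of the inherited forms (SHR and SHRSP) was set against the mean of the renovascular forms (2K1C and 1K1C) to ask whether the 2 kinds of model differ. In limma, 3.17% of all genes were called and 0 of the 8, with 1 at an unadjusted p under 0.05. That gene was Omd, with a difference of 0.94 ± 0.26 (SE), a 95% interval of 0.39 to 1.49 and an adjusted p of 0.0597. Without SHR 1, 1K1C 2, WKY 2 and WKY 3 it was 0.86 ± 0.15 and passed limma's test, at an adjusted p of 0.00464, where 2.96% of all genes were called. That setting was chosen after the data were seen and leaves out arrays on which Omd was itself low, so it is no independent check. The other 7 differences ran from -0.24 for Lum to 0.54 for Fmod; Ogn had 0.32 ± 0.24. The inherited and operated groups lay on different slides.

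The genes differed in how far they varied among rats of a group. The pooled standard deviation was 0.783 for Bgn, 0.684 for Fmod, 0.554 for Omd, 0.513 for Aspn, 0.501 for Ogn, 0.415 for Lum, 0.314 for Prelp and 0.189 for Dcn, against a median of 0.306 over all genes. Bgn spanned 8.26-fold over the 20 arrays, Fmod 8.64-fold and Omd 7.41-fold, while Dcn spanned 1.85-fold. Ogn, Bgn and Omd were lower on all 4 arrays with mesothelium markers than on every array without them in the same group. Dcn and Fmod were so on 3 of the 4, Lum on 2, and Prelp and Aspn on 1. How many of all genes tested were low on these arrays, or on 2K1C 4, was not counted. Low levels were not particular to these 4 arrays. Array 2K1C 4 was the lowest 2K1C array for each of the 8 genes, with Ogn at 4.27, Bgn at 6.10 and Omd at -0.43. Its mesothelium list mean was -2.70 and its lymphocyte list mean 2.02. The marker Msln (mesothelin) had log2 levels of 3.27 on SHR 1, 2.18 on 1K1C 2, 2.69 on WKY 2 and 1.46 on WKY 3, and from -4.93 to 0.35 on the others. The same 4 arrays were low in Schwann cell markers, with list means of -0.32, -1.02, -0.66 and -1.12, against 0.07 to 1.82 on the other arrays. Their white adipocyte means were 3.22, 3.38, 2.95 and 2.84, above all other arrays but 1K1C 1, at 2.96. The fibroblast list was 0.96 to 1.92 on all 20 arrays, and did not single these arrays out. The smooth muscle list was lowest of all 20 on 1K1C 2, at -0.45, and next lowest on SHR 1, at 1.58. On WKY 2 and WKY 3 it was 2.49 and 3.06, above WKY 1 and WKY 4, at 2.23 and 2.39. The part of these lists in the levels of the 8 genes was not tested.

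**Figure D3:**
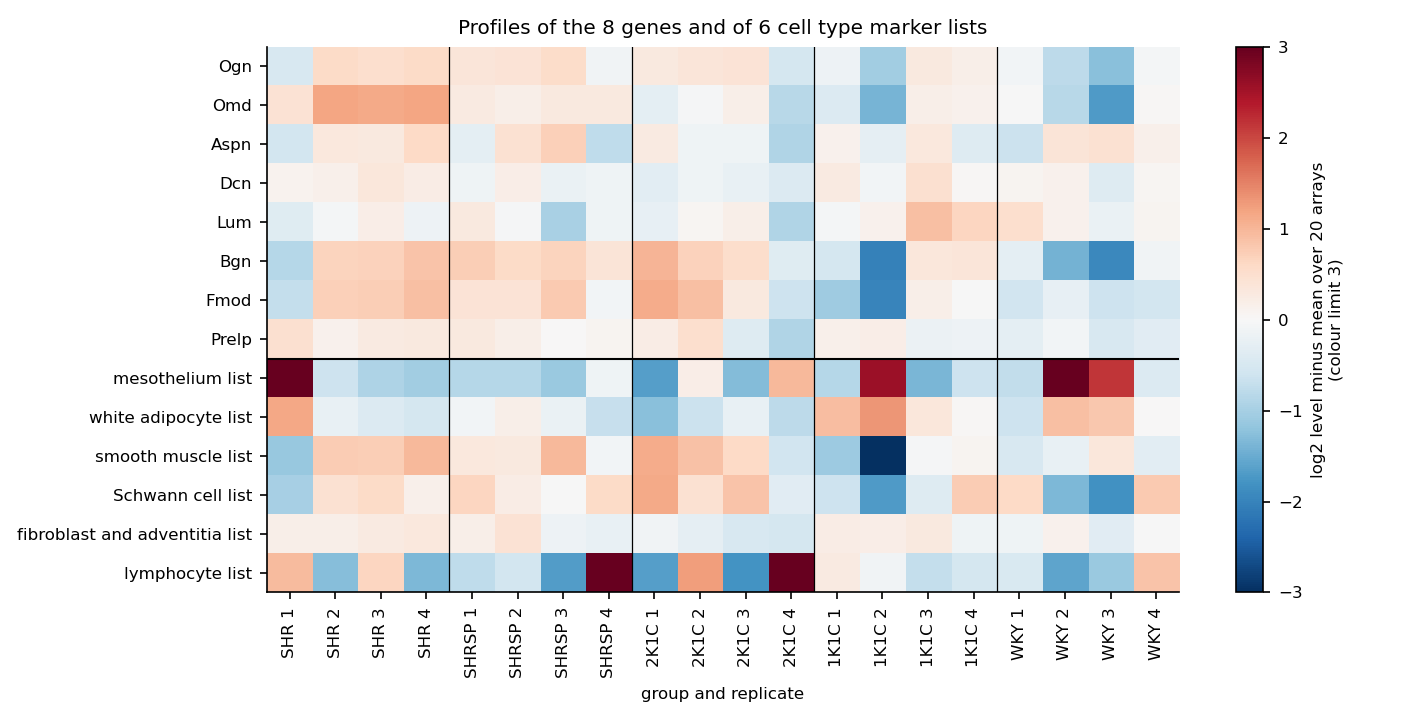
Colour shows the log2 level minus its mean over the 20 arrays for the 8 genes (upper rows) and the mean of 6 marker lists (lower rows), with arrays in columns by group; colours stop at 3 in either direction. SHR 1, 1K1C 2, WKY 2 and WKY 3 are dark red in the mesothelium row and blue in the rows of Ogn and Bgn; in the Omd row SHR 1 is paler than the other SHR arrays and the other 3 are blue.

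**Figure D4:**
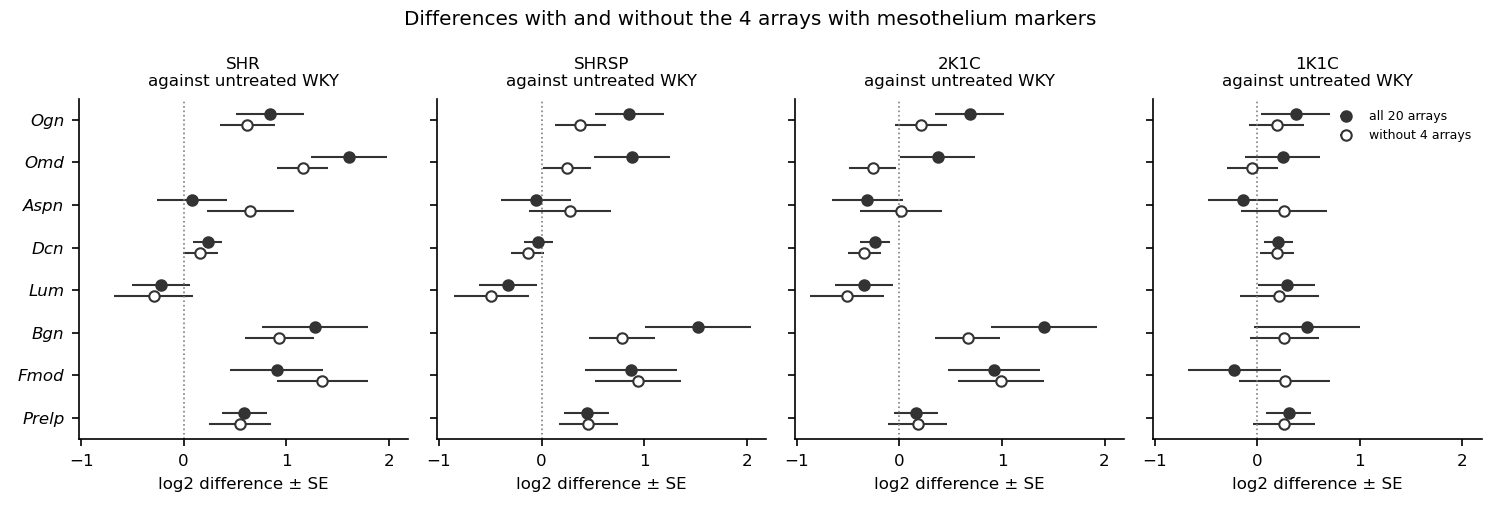
Log2 difference from untreated WKY with its standard error for the 8 genes in SHR, SHRSP, 2K1C and 1K1C, on all 20 arrays (filled) and without SHR 1, 1K1C 2, WKY 2 and WKY 3 (open). The open points of Ogn, Bgn and Omd lie nearer to 0 in most panels, with Omd in SHR at 1.16, and those of Fmod do not.

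Likeness between profiles was measured as the root mean square difference of log2 levels, each centred on its mean over the 20 arrays, so that genes with little variation are near to each other by construction. The 20 points share 5 groups and 3 slides, and the values are a description. Among the 8 genes the nearest pairs were Dcn and Prelp, at 0.34, and Dcn and Lum, at 0.36. Ogn lay at 0.41 from both Omd and Bgn, and at 0.46 from Fmod, while Bgn and Fmod lay at 0.47. The widest gaps were between Bgn and Lum, at 0.98, and Bgn and Aspn, at 0.95. Seen from Omd, Ogn was the 8th nearest of all other tested genes, while Aspn, on the other side of Omd on chromosome 17, was 7775th and lay at 0.82. Seen from Ogn, Omd was 722nd.

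**Figure D5:**
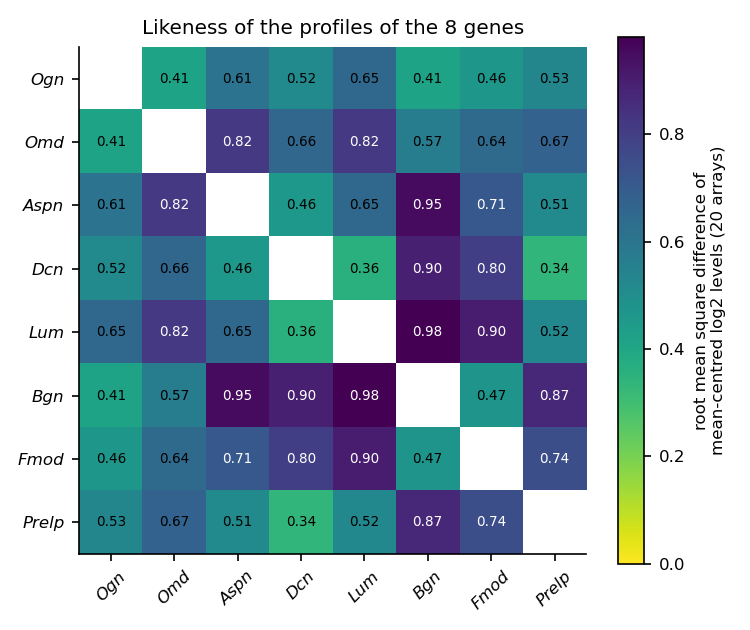
Root mean square difference of mean-centred log2 levels over the 20 arrays for every pair of the 8 genes; smaller (lighter) is more alike. Ogn, Omd, Bgn and Fmod lie at 0.41 to 0.64 from each other, and Dcn, Lum and Prelp at 0.34 to 0.52.

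The 5 genes nearest to Ogn were Plpp1, a phospholipid phosphatase, at 0.149, Cfap418 at 0.184, Plscr2, of the phospholipid scramblase family, at 0.199, Tmem204 at 0.200, and Fstl1, a secreted follistatin-like protein of mesenchyme, at 0.206. All 5 lay nearer to Ogn than any of the other 7 proteoglycans. The nearest gene was Gskip for Dcn (0.142), P2ry2, a nucleotide receptor, for Bgn (0.171), Rtn4r for Fmod (0.268), C1h11orf24 for Prelp (0.167), Tslp, an epithelial cytokine, for Aspn (0.245), and Fmo2, a flavin monooxygenase, for Omd (0.326). For Lum it was the transcript named ENSRNOT00000051653 in the files (0.263).

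Of the genes that act with these proteoglycans, 91 of 130 on 10 lists were tested, on all 20 arrays. Of these, 4 were called in any comparison, all of them higher in an inherited form than in untreated WKY. These were 4 in SHR, where 1.85% of all genes were called, and 3 in SHRSP, where 2.4% were; the lists were not tested against those shares. Among 17 tested enzymes of chondroitin and dermatan sulfate synthesis, 1 rose: Csgalnact1, which starts chondroitin chains, was 1.34 ± 0.28 higher in SHR (adjusted p 0.0189) and 1.10 ± 0.28 higher in SHRSP (0.0457). It averaged 0.16 ± 0.39 in SHR and -0.08 ± 0.57 in SHRSP, against -1.18 ± 0.35 in untreated WKY (SD, n = 4 each). The list's median difference was 0.15 in SHR and 0.13 in SHRSP, beside medians of 0.02 and 0.00 over all genes. Among 6 tested enzymes of keratan sulfate synthesis, the chain carried by Lum, Fmod and Omd, 1 rose: B4galt1, a galactosyltransferase also used for other glycans, by 0.58 ± 0.14 in SHR (0.0408) and 0.56 ± 0.14 in SHRSP (0.0399). Its list had medians of 0.28 and 0.09.

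Among 9 tested extracellular matrix proteoglycans and link proteins outside the family, 2 rose in SHR and 1 in SHRSP, with the same shares of all genes called (1.85% and 2.4%). Hapln3, a hyaluronan link protein, was 1.44 ± 0.33 higher in SHR (adjusted p 0.0337 in limma). Serglycin (Srgn), the proteoglycan of secretory granules, was 0.98 ± 0.24 higher in SHR (0.0459) and 1.18 ± 0.24 higher in SHRSP (0.0129). The list's medians were 0.76 in SHR and 0.94 in SHRSP, with 7 of 9 positive in each. None of these genes was called in 2K1C or 1K1C against untreated WKY.

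In the other 7 lists limma called no member in any comparison. Fibrillar collagens, the main ligands of the family, had 8 tested members, of which 6 in SHR, 7 in SHRSP, 7 in 2K1C and all 8 in 1K1C had positive differences from untreated WKY, with medians of 0.14, 0.33, 0.63 and 0.30. The largest difference was that of Col11a1 in 2K1C, 1.58 ± 0.86 (adjusted p 0.282). Of 16 genes of collagen maturation and crosslinking, the largest was that of Lox, lysyl oxidase, in SHRSP, at 1.85 ± 0.62 (0.137). Of 10 TGF-beta ligands, binding proteins and receptors, it was that of Ltbp2 in 2K1C, at 2.14 ± 0.63 (0.110). All 10 of that list had positive differences from untreated WKY in SHRSP and in 2K1C, with medians of 0.27 and 0.34. For 10 receptors reported to bind decorin or biglycan it was Cd14, 1.10 ± 0.44 in 1K1C against 2K1C (0.158), and for 10 cell surface proteoglycans Sdc3, -1.20 ± 0.35 in the same comparison (0.0762). Among 4 tested proteases it was Adamts5, 0.75 ± 0.43 in 1K1C against 2K1C (0.321), and among 3 further small leucine-rich proteoglycans Podnl1, 1.35 ± 1.08 in SHRSP against SHR (1.00).

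Dermatopontin (Dpt), a fibroblast marker that binds decorin in matrix, was chosen after its values were seen, as the 1 called gene of 11 tested on the fibroblast list. It was 1.62 ± 0.24 higher in SHR (adjusted p 0.000782 in limma) and 1.28 ± 0.24 higher in SHRSP (0.00625) than in untreated WKY, and 1.36 ± 0.17 higher in the inherited than in the renovascular forms (6.02e-05). The median of the fibroblast list was 0.12 in SHR and 0.064 in SHRSP, and its other members went both ways without a call. Fbln1 had 1.18 in SHR and 0.73 in SHRSP, Pi16 1.07 and 1.17, and Thy1 -1.23 and -1.22 (adjusted p in limma of 0.135 or more). The lists of endothelium and smooth muscle, with 8 genes each, had medians of 0.55 and 0.56 in SHR against untreated WKY and no call. Of neuron markers, with 6 of 10 tested, the list medians against untreated WKY were -2.93 in SHR and -2.79 in SHRSP. In both groups, 2 markers were called lower. They were Prph, at -3.50 in SHR (adjusted p 0.0437 in limma) and -3.51 in SHRSP (0.0348), and Gap43, at -2.97 (0.0389) and -3.02 (0.0277). The neuron list averaged -2.50 to -1.28 on the SHR arrays and -1.30 to 4.60 on the untreated WKY arrays. Its median difference from untreated WKY was also negative in the operated groups, at -2.86 in 1K1C and -1.996 in 2K1C, without a call. Levels below untreated WKY were thus not particular to the inherited forms. The part of the neuron markers in the proteoglycan values was not tested.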

How the data were processed

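Arrays of 20 rats, 4 per group, were analysed; the labels call them biological replicates. The processed signal intensity of each spot, linear and already background-subtracted, was made by the authors in Agilent's Feature Extraction software (version 10.7.3.1 in the submitters' processing notes), per the file headers. The deposited value table held the same signal intensity without scaling. The 75th percentile over non-control spots was subtracted on the log2 scale from the authors' deposited values; outlier spots, at most 684 on an array, were dropped, none was saturated, and spots of a probe were averaged. Of 30367 probes, 18355 matched a RefSeq accession (2935 with a newer symbol), and the other 12012 kept the file's name. Probes entered when every spot exceeded background clearly on the 4 arrays of any group (18873 probes), and each gene was tested through its brightest probe (16401 genes).

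These values, with all 5 groups in 1 model, were fitted in limma 3.58.1 (R 4.3.3; lmFit, eBayes, prior of 2.58 degrees of freedom), two-sided, with Benjamini-Hochberg adjustment over all genes at 0.05; the script was tested on simulated data. The number of arrays limits the precision. The 8 genes, the 12 marker lists and the 10 pathway lists were chosen with earlier results of these data known. Named were all 8 genes; the called members of each pathway list, or else its largest difference; up to 3 brightest markers; the 5 genes nearest to Ogn and the nearest of each other gene. The replicate numbers did not pair the arrays: over 40 same-numbered pairs, deviations correlated from -0.566 to 0.642, with a median of -0.03. Alternatives were other scalings and background correction, no filter, every probe, only the groups compared, a replicate block, each array left out, and 2 chosen after seeing the data (without 4 mesothelium-marker or 2 lymphocyte-marker arrays, by list means above -2 and 0). A slide block could not be fitted, since each group lies on 1 slide.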

Additional observations from a re-analysis of the deposited data

Results flagged for a closer look

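In 8 of the 45 sets of 4 arrays (9 probes in 5 groups), 1 array stood far from the other 3 by Dixon's criterion. Chance alone flags about 1 of 20 independent sets. These sets share the same 20 arrays and are not independent, so their count cannot be set against that rate. SHR 1 was low in 4 genes. Its log2 level was 4.33 for Ogn, against 5.31 to 5.37 on the other SHR arrays, and 3.13 for Fmod, against 4.56 to 4.74. For Bgn it was 5.61, against 7.14 to 7.31, and -0.14 on the second probe, against 1.46 to 1.51. For Omd it was 0.84, against 1.54 to 1.60. The other 3 sets were Ogn on 2K1C 4, low at 4.27 against 5.09 to 5.21, Dcn on WKY 3, low at 4.94 against 5.39 to 5.45, and Fmod on WKY 2, high at 3.60 against 3.23 to 3.28. SHR 1, WKY 2 and WKY 3 are arrays with mesothelium markers, and 2K1C 4 had the highest lymphocyte markers of all arrays.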

How the results depend on the processing

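The calls are limited by 4 arrays per group and by slides that separate most groups. Under the alternatives, 987 of the 1056 recomputed differences of the 8 genes kept their sign and their side of the threshold, 55 changed sign, 8 lost a call and 6 gained one. In SHR against untreated WKY, 0 of the 8 genes were called on deposited values as given (Omd 1.60, adjusted p 0.101 in limma). The number was also 0 with only the groups compared (0.178) and with the replicate block (1.61, 0.0532), and 0 to 1 with 1 array left out (Omd 1.25 to 1.83). The adjusted p of Omd in limma was 0.0177 to 0.0456 under quantile normalization, normexp, median scaling, no filter and every probe. For inherited against renovascular forms 1 of the 8, Omd, was called on deposited values (1.21) and with only the groups compared (0.94). The number was also 1 without the 4 mesothelium-marker arrays (0.86), and 0 to 1 with 1 array left out (1 without SHR 1, 1K1C 3 or 1K1C 4).

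The differences that changed sign were uncalled but not all near 0, and the cause was not tested. On all arrays, Omd in 2K1C was 0.37 and Fmod in 1K1C was -0.23 against untreated WKY. Dcn in SHRSP against untreated WKY was 0.019 under quantile normalization, 0.012 under normexp and 0.14 on deposited values. In SHRSP against SHR, Fmod was 0.078, 0.072 and 0.14 under the same 3, and Ogn was -0.075 under median scaling. Deposited values also gave 0.11 for Aspn in SHRSP and -0.064 for Prelp in 2K1C against untreated WKY, 0.071 for Lum, 0.027 for Prelp and 0.046 for Aspn in SHRSP against SHR, and 0.027 for Lum in inherited against renovascular forms. Without the 4 mesothelium-marker arrays, values against untreated WKY were 0.28 for Aspn in SHRSP, 0.019 for Aspn and -0.26 for Omd in 2K1C, and 0.27 for Fmod, 0.26 for Aspn and -0.048 for Omd in 1K1C. The same setting gave -0.24 for Ogn and -0.15 for Bgn in SHRSP against SHR, and 0.21 for Omd in 1K1C against 2K1C. Without the 2 lymphocyte-marker arrays, Aspn was 0.21 in SHRSP against untreated WKY, Fmod 0.12 and Aspn 0.13 in SHRSP against SHR, and Prelp -0.11 and Aspn -0.057 in 1K1C against 2K1C.

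With 1 array left out, values ranged as follows. In SHRSP against SHR, Ogn ran from -0.24 to 0.15, Bgn from -0.15 to 0.42, Fmod from -0.41 to 0.13, Aspn from -0.37 to 0.13 and Lum from -0.28 to 0.14. Against untreated WKY, Aspn ran from -0.17 to 0.32 in SHR and from -0.30 to 0.21 in SHRSP, Dcn from -0.15 to 0.020 in SHRSP, Prelp from -0.051 to 0.41 in 2K1C, and Fmod from -0.53 to 0.20 and Omd from -0.11 to 0.59 in 1K1C. In 1K1C against 2K1C, Omd ran from -0.32 to 0.21, Prelp from -0.11 to 0.36 and Aspn from -0.057 to 0.33. Ranges that kept their sign but reached over 1.5 times from the value on all arrays included, in 1K1C against untreated WKY, 0.14 to 0.66 for Ogn and 0.15 to 1.01 for Bgn. In 1K1C against 2K1C they included -0.53 to -0.023 for Ogn and -1.20 to -0.40 for Bgn, and in SHRSP against untreated WKY 0.53 to 1.10 for Omd.

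Over all genes, counts of calls ranged, with 1 array left out, from 124 to 668 in SHR (303 with all arrays), 174 to 910 in SHRSP (393), 0 to 870 in 2K1C (2) and 0 to 204 in 1K1C (0) against untreated WKY, the highest each time without WKY 4, and from 0 to 1897 in 1K1C against 2K1C (0), the highest without 1K1C 4. Normexp gave 86 in 2K1C, and quantile normalization 8. With only the groups compared the counts were 102 in SHR and 161 in SHRSP, and on deposited values 120 and 207. Without the 4 mesothelium-marker arrays they were 118 in SHR and 119 in SHRSP. Median scaling moved the median of all genes in SHR to 0.12, where 221 of 340 calls were then higher, against 137 of 303 under 75th-percentile scaling, 181 of 309 under quantile normalization and 192 of 319 under normexp. Higher calls were 143 of 207 in SHRSP against untreated WKY on deposited values (189 of 393 under 75th-percentile scaling) and 588 of 684 in inherited against renovascular forms (238 of 520). In SHRSP against SHR they were 27 of 56 under quantile normalization and 26 of 57 under median scaling (36 of 61). The replicate block changed no call of the 8 genes but that of Omd; the numbers do not pair the arrays. A slide block was not run, since each group lies on 1 slide.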
